A study of Mus musculus with 4 samples.

Results

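The transcripts described here were long non-coding RNAs (lncRNAs) outside the large lincRNA and antisense classes, of which short fragments were counted in small extracellular vesicles (sEVs) from mouse plasma. They were the rows of the deposited "other RNA" tables whose transcript ID belongs, in GENCODE M21, to a gene of type processed_transcript, bidirectional_promoter_lncRNA, sense_intronic, sense_overlapping, 3prime_overlapping_ncRNA, macro_lncRNA or TEC, without chromosomes X and Y. The rule found 65 transcripts of 61 genes among the 411 other RNA features of the study and the 1146 features of all its tables, and 3 more transcripts of these types were left out because they lie on a sex chromosome. Of the 7 gene types, 5 had members: 51 were processed_transcript, 6 sense_intronic, 5 bidirectional_promoter_lncRNA, 2 TEC and 1 sense_overlapping. The vesicles were taken 12 h after myocardial infarction (MI) surgery (2 libraries) or sham surgery (2 libraries), and all donors were wild-type mice on a normal diet. The labels give no age and no sex, and do not say how many mice stand behind a library, so the p-values below reflect no more than how far libraries of a group lie apart, and that distance may be technical. Differential centrifugation of the blood gave the vesicles, Trizol, chloroform and isopropanol were used to purify their RNA, and the QIAseq miRNA Library Kit, used to build the libraries, tags each molecule with a unique molecular identifier (UMI) before amplification.

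lncRNAs are transcripts without a recognised reading frame. A sense_intronic lncRNA lies in an intron of a coding gene on the same strand, a bidirectional_promoter_lncRNA starts near a coding gene's promoter and runs the opposite way, TEC marks loci that still await experimental evidence, and processed_transcript is the class for those that fit none of the others. sEVs are membrane-bound particles that cells release into the blood, and their small RNA includes miRNAs, tRNA pieces and fragments of longer transcripts. A library built for miRNAs reads only short pieces, so the counts describe fragments and give no evidence of whole lncRNAs in the vesicles.

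The libraries held 872459 and 606756 UMIs over all tables in MI, against 1523731 and 746567 in sham. Levels are given as UMIs per 1000000 UMIs of all tables (UPM). No feature was listed below 10 UMIs, so an unlisted transcript may have had up to 9, which is 10.3 and 14.8 UPM in MI and 5.91 and 12.1 UPM in sham. Marker miRNAs of several cell types were measured in the same libraries. Of 4 muscle miRNAs taken as cardiomyocyte markers, 3 were listed, 2 of them in all 4 libraries, and miR-499-5p was unlisted. The 3 summed to 1355 and 1351 UPM in MI against 420.02 and 273 UPM in sham. This sum does not tell heart from skeletal muscle. The 5 red cell miRNAs summed to 49626 and 36792 UPM in MI against 32254 and 30672 UPM in sham. The hepatocyte miRNA miR-122-5p stood at 2824 and 2681 UPM in MI against 8650 and 7564 UPM in sham. The 4 leukocyte and platelet miRNAs summed to 6047 and 6349 UPM in MI against 9105 and 6930 UPM in sham. Ribosomal RNA fragments had 165375 and 250839 UPM in MI against 104909 and 143632 UPM in sham. The part of these sources in the results below was not tested. In plasma, fewer releasing cells and less RNA per cell or vesicle cannot be told apart.

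Many of the transcripts carry a long run made only of purines (A and G) or only of pyrimidines (C and T), and the 3 with the highest mean levels in MI were of that kind. The longest such run in a transcript is called its tract here. Both the measure and its limit of 40 nt were chosen after the values were seen. The tract is printed in capitals between 10 lower-case flanking bases, 5′ to 3′ on the transcript's strand, from the GENCODE M21 transcript sequences (mouse GRCm38), and Gm16551 begins with its tract. The first 4 belong to abundant transcripts that were called higher in MI, Foxd2os was listed in MI alone, and 4930563E22Rik stands just above the limit of 40 nt.
Platr32: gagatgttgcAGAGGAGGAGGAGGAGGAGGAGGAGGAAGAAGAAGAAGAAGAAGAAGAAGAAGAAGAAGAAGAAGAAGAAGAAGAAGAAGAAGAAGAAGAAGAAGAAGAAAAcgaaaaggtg
Gm26704: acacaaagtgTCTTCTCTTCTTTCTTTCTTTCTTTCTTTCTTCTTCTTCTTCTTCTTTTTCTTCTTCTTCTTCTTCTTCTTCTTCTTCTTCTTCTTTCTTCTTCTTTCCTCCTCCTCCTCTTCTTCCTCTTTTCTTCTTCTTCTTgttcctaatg
Gm16551: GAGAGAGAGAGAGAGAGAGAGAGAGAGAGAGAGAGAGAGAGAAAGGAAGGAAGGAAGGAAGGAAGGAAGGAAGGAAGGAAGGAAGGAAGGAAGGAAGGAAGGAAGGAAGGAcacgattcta
Mir99ahg: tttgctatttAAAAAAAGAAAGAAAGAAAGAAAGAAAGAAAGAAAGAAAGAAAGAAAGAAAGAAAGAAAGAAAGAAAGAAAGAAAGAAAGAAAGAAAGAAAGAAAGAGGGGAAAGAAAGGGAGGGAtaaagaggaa
Foxd2os: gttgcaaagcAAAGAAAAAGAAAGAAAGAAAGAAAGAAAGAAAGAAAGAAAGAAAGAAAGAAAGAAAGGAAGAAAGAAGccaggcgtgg
4930563E22Rik: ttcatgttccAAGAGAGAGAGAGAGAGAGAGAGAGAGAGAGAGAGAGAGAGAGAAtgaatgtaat

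Platr32 (named as a pluripotency-associated transcript) has a 102-nt purine tract of GGA and GAA units that joins the last base of an exon at chr7:81059253-81059253 to 101 bases at chr7:81066055-81066155 (+), inside Alpk3, the gene of a kinase of heart and skeletal muscle. Gm17491 has a 150-nt pyrimidine tract and lies inside Slc20a2, the gene of a phosphate transporter. Both are sense_intronic transcripts. Gm26704, a bidirectional_promoter_lncRNA whose exon overlaps one of Fzd6 on the other strand, has a 135-nt pyrimidine tract at chr15:39005552-39005686 (-). The tract of Gm16551 is its first 111 bases (chr9:74847983-74848093, +), that of Mir99ahg is a 116-nt GAAA repeat at chr16:77500274-77500389 (+), that of Foxd2os is 69 nt at chr4:114921119-114921187 (+), and that of 4930563E22Rik is 45 nt at chr11:72218014-72218058 (+). All of these tracts lie in exons of the lncRNA itself.

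For comparison, the longest tracts of A330023F24Rik (15 nt, chr1:195021499-195021513, +) and Gm15672 (14 nt, chr5:139148292-139148305, -) are shown, since the levels of these transcripts overlapped between the groups.
A330023F24Rik: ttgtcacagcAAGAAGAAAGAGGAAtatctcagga
Gm15672: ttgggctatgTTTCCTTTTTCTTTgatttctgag

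A tract of 40 nt or more was found in 25 of the 65 transcripts (38.5%), against 420 of all 6065 M21 transcripts of the same gene types off X and Y (6.92%). Among transcripts of 1000 to 4000 nt the shares were 18 of 48 (37.5%) and 319 of 3532 (9.03%). The lincRNA and antisense features of the same table, the other lncRNA classes, had such a tract in 91 of 242 cases (37.6%). Of the 12746 M21 transcripts of those types 474 had one (3.72%), but these transcripts were shorter, with a median of 783 nt against 2110.5 nt. The high share of tracts was thus common to the lncRNA classes of these tables. The repeat GAAAGAAAGAAAGAAAGAAA or its reverse complement occurred in 5 of the 65 (7.69%) against 1.25% of the annotated transcripts of these types. AGAGAGAGAGAGAGAGAGAG, searched the same way, occurred in 8 (12.3%) against 3.33%, and AAGGAAGGAAGGAAGGAAGG in 5 (7.69%) against 0.956%. Such repeats recur at many places in a genome. How reads that match several places were assigned, and whether strand was used, is not stated by any source at hand. A fragment of such a sequence thus need not come from the gene whose name it carries. The annotation used for counting is not named either, and 12 listed IDs are absent from M21. The M21 shares above may therefore include transcripts that could not have been listed.

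Summed over all 65 transcripts, the fragments made up 3388 and 3603 UPM in MI, against 1039 and 929.6 UPM in sham, which is 3.55 times as much in MI. Both MI libraries lay above both sham libraries. The 343 other RNA features that are neither one of the 65 nor ribosomal RNA summed to 20612 and 23756 UPM in MI against 8670 and 8661 UPM in sham, a ratio of 2.56, so the rest of the table also summed to more in MI. As a share of other RNA UMIs without ribosomal RNA, the 65 transcripts took 14.1% and 13.2% in MI against 10.7% and 9.69% in sham.

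The sum divided unevenly by tract. The 25 transcripts with a tract of 40 nt or more held 2668 and 2853 UPM in MI, against 441 and 447 UPM in sham, a ratio of 6.21. The other 40 held 719.8 and 749.9 UPM in MI, against 598 and 482 UPM in sham, a ratio of 1.36. Without A330023F24Rik, the most abundant of the 40, the ratio was 1.71. The same division of lincRNA and antisense transcripts gave 11109 and 11820 UPM in MI against 2269 and 2266 UPM in sham with a tract (91 transcripts, ratio 5.06), and 5278 and 7416 UPM in MI against 3824 and 4960 UPM in sham without one (151 transcripts, ratio 1.45).

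**Figure D1:**
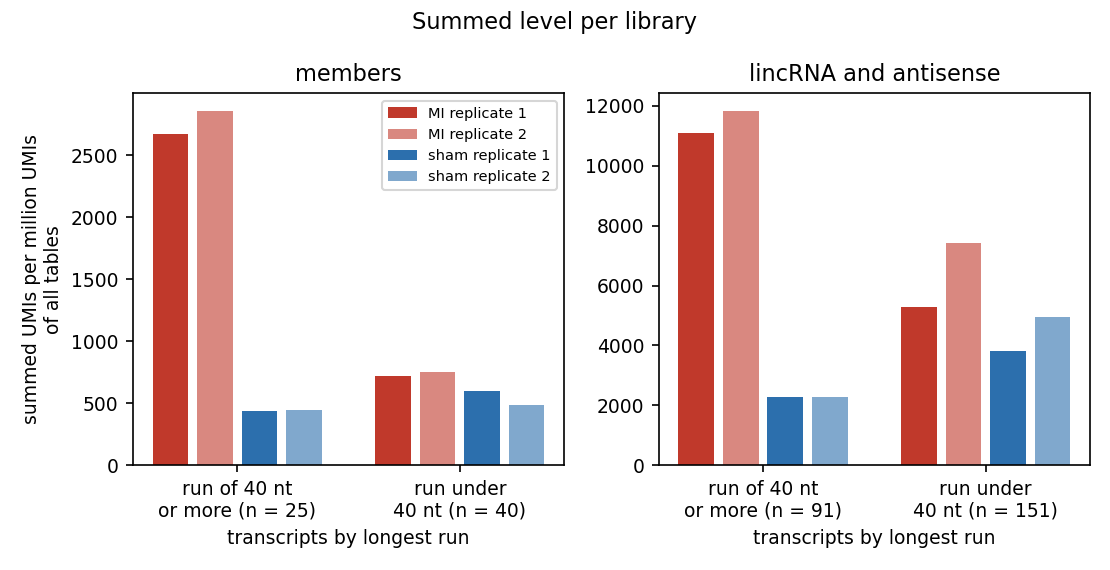
Summed level of the 65 transcripts ("members", left) and of lincRNA and antisense transcripts (right) in each library, in UPM, divided by whether the longest purine or pyrimidine run reaches 40 nt. Each bar is 1 library; with a run of 40 nt or more, both MI bars of the 65 transcripts (2668 and 2853) stand far above both sham bars (441 and 447), and below 40 nt the 4 bars lie between 482 and 749.9.

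By gene type, the 6 sense_intronic transcripts summed to 1291 and 1262 UPM in MI, against 179 and 219.7 UPM in sham. Platr32 and Gm17491 held most of that sum in MI, and Gm15509 and Cep112it, of the same type, were not called. The 5 bidirectional_promoter_lncRNA transcripts had 251 and 287 UPM in MI, against 47.9 and 37.5 UPM in sham, most of it from Gm26704. The 51 processed_transcript members had 1746 and 1961 UPM in MI, against 793 and 672 UPM in sham. Both TEC transcripts were listed in MI alone, with a sum of 101 and 92.3 UPM, and the sense_overlapping transcript AC122898.1 in sham replicate 1 alone, with 18.4 UPM.

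The test was edgeR's quasi-likelihood F-test on the UMI counts of the whole other RNA table, with Benjamini-Hochberg adjustment over the 219 features that passed the filter on low counts. Of the 219, 63 (28.8%) were called higher in MI at an adjusted p under 0.05 and 2 (0.913%) lower. Of the 65 transcripts, 37 passed the filter, 17 of these were called higher and none lower. At an unadjusted p under 0.05 in edgeR, 19 of the 37 were higher and none lower, against 77 (35.2%) and 2 of all tested features. The libraries of the groups did not overlap, with MI higher, in 28 of the 37, against 161 of the 219 (73.5%). In none of the 37, and in 8 of the 219 (3.65%), they did not overlap with MI lower. Their median log2 fold change was 2.39, and that of all 219 features 1.57, with unlisted values at 0. With unlisted features at 9 UMIs, 52 of the 65 were among 304 tested features, and these medians were 0.99 and 0.95. Several of the 37 passed the filter through MI alone. Of the 17 calls, 7 were of transcripts listed in all 4 libraries. The rest were of transcripts that passed the filter through MI, where they were high, so the count of calls does not describe all 65. Without MI replicate 1 or without MI replicate 2, no feature of the table passed in edgeR (49 and 41 were higher at an unadjusted p under 0.05, 10 of the 65 among them each time). In those fits the sham pair alone gave the spread and the lone MI library was assumed to vary like it, and the median log2 fold change of the tested lncRNAs was 2.37 and 2.00, so the lost calls do not show smaller differences. Without sham replicate 1 the median log2 fold change of the tested lncRNAs was 2.86, against 2.26 for all tested features. Without sham replicate 2 these medians were 2.48 and 1.61. In both of these fits the MI pair alone gave the spread, and the lone sham library was assumed to vary like it. The calls also depended on the scale. With DESeq2 size factors computed within the table, 26 features were called higher and 4 lower, 7 of the 65 transcripts among the higher ones, and the median of all tested features moved to 0.28. With TMM factors none was called in either direction (51 higher and 16 lower at an unadjusted p under 0.05 in edgeR) and the median was 0.26, against 1.00 for the tested lncRNAs described here.

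The 16 transcripts listed in all 4 libraries passed the filter through both groups. Of them, 7 were called higher, against 38 of all 114 features listed in all 4 libraries. All 7 have a tract of 77 nt or more, and the values of 6 are given here.

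Platr32 had 447 and 429 UPM in MI (390 and 260 UMIs), against 56.4 and 53.6 UPM in sham (86 and 40 UMIs). The libraries within a group were close and the groups far apart, with a log2 fold change of 2.99 ± 0.12 (SE, n = 2 each, edgeR adjusted p = 0.00273). Gm17491 had 345 and 290.1 UPM in MI, against 43.3 and 24.1 UPM in sham, with a log2 fold change of 3.19 ± 0.34 (SE, edgeR adjusted p = 0.0115). Both are intronic transcripts of a coding gene, and in each the lower MI library lay well over the higher sham library. Without MI replicate 1 the log2 fold change of Platr32 was 2.96 at an adjusted p of 0.0532, and without MI replicate 2 it was 3.02 at 0.0542, the lowest adjusted p of any of the 65 in those fits. For Gm17491 these were 3.07 at 0.0904 and 3.32 at 0.0784. With DESeq2 size factors within the table, Platr32 kept its call at a log2 fold change of 1.75 (edgeR adjusted p = 0.0465) and Gm17491 lost it at 1.93 (0.0706).

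Gm26704 had 219 and 267 UPM in MI, against 40.03 and 37.5 UPM in sham, and a log2 fold change of 2.64 ± 0.19 (SE, edgeR adjusted p = 0.00426). Gm16551, a processed_transcript that shares exon sequence with the lincRNA Gm20649 on the same strand, had 203 and 185 UPM in MI, against 38.1 and 30.8 UPM in sham. Its adjusted p was 0.00610 at a log2 fold change of 2.48 ± 0.20 (SE), and reads of the shared stretch cannot be split between both genes. Gm15663 (113-nt pyrimidine tract) had 92.8 and 98.9 UPM in MI, against 24.3 and 25.4 UPM in sham. The log2 fold change of Gm15663 was 1.94 ± 0.29 (SE, edgeR adjusted p = 0.0256). 4930556M19Rik (96-nt pyrimidine tract with a CCTT repeat) had 88.3 and 105 UPM in MI, against 25.6 and 14.7 UPM in sham. It was the weakest of the calls among transcripts listed everywhere, with a log2 fold change of 2.23 ± 0.43 (SE, edgeR adjusted p = 0.0423). Without MI replicate 1 and without MI replicate 2, with a lone MI library as above, none of these 4 passed, at log2 fold changes of 2.78 and 2.49 for Gm26704, 2.41 and 2.55 for Gm16551, 1.99 and 1.90 for Gm15663, and 2.37 and 2.11 for 4930556M19Rik. With DESeq2 size factors within the table, Gm26704 kept its call at 1.38 (edgeR adjusted p = 0.0465), and Gm16551 at 1.23 (0.10), Gm15663 at 0.71 (0.390) and 4930556M19Rik at 0.95 (0.408) did not pass. Gm15663 and 4930556M19Rik also missed the threshold with read counts (0.0650 and 0.109) and in 1 fit over all tables with TMM factors (0.0516 and 0.0908).

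The other 4 transcripts with a tract of 40 nt or more that were listed everywhere did not pass, although MI lay above sham in each. Gm13645, with an AG repeat and an exon overlap with Chd5 on the other strand, had 57.3 and 92.3 UPM in MI, against 16.4 and 26.8 UPM in sham (adjusted p = 0.0893, edgeR). Gm14023, which overlaps an exon of the interleukin gene Il1a on the opposite strand, had 59.6 and 79.1 UPM in MI, against 30.9 and 18.8 UPM in sham (adjusted p = 0.118, edgeR). 4930563E22Rik had 86.0 and 130.2 UPM in MI, against 47.3 and 68.3 UPM in sham (adjusted p = 0.182, edgeR). Gm11769 had 51.6 and 34.6 UPM in MI, against 18.4 and 22.8 UPM in sham (adjusted p = 0.300, edgeR). The log2 fold changes were 1.80, 1.47, 0.91 and 1.07 in that order, and the last 2 turned to -0.33 and -0.11 with DESeq2 size factors within the table. The tracts of these 4 are 65, 69, 45 and 49 nt long, shorter than those of the 7 that passed.

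The remaining 5 transcripts listed in all libraries have tracts under 40 nt and none was called. A330023F24Rik, whose annotated end lies 110 bases before Mir29b-2 and 617 before Mir29c, was the most abundant of all 65 in sham, with 269 and 264 UPM in MI against 295 and 236 UPM in sham. The groups overlapped, and its log2 fold change was 0.00 ± 0.16 (SE, edgeR adjusted p = 0.996) on the scale used here, and -1.25 with DESeq2 size factors within the table. The mature miR-29c-3p encoded beside it stood at 175 and 236 UPM in MI against 82.7 and 87.1 UPM in sham, and miR-29b-3p, which a second locus encodes too, at 291 and 236 UPM in MI against 377 and 221 UPM in sham. Gm15672 had 18.3 and 44.5 UPM in MI, against 41.3 and 18.8 UPM in sham. One transcript of 1500004A13Rik (ENSMUST00000184014) had 12.6 and 26.4 UPM in MI, against 18.4 and 20.1 UPM in sham. The levels of these 2 overlapped between the groups as well.

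B230206H07Rik (37-nt tract) had 74.5 and 46.1 UPM in MI, against 43.3 and 29.5 UPM in sham, and 9530052E02Rik (34-nt tract) had 48.1 and 57.7 UPM in MI, against 33.5 and 38.8 UPM in sham. Their log2 fold changes of 0.72 and 0.55 did not pass (edgeR adjusted p = 0.366 and 0.399) and were -0.51 and -0.68 with DESeq2 size factors within the table. Both stand just below the limit of 40 nt and between the transcripts with long and with short tracts in fold change as well.

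**Figure D2:**
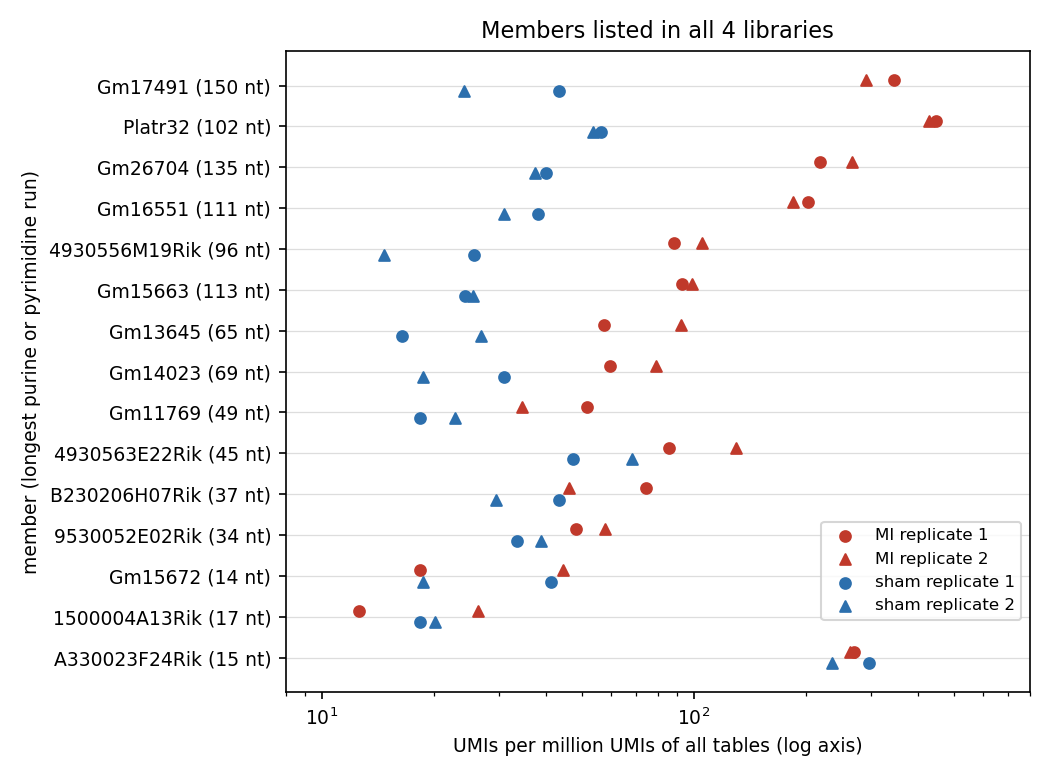
Levels of transcripts listed in all 4 libraries (1 of the 16 is not shown), in UPM on a log axis, with the length of each transcript's longest purine or pyrimidine run in brackets. Red symbols are MI and blue symbols sham libraries; in the upper rows red and blue lie far apart (Platr32 at 447 and 429 against 56.4 and 53.6), and in the 3 lowest rows they mix (A330023F24Rik at 269 and 264 against 295 and 236).

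Over these 16 transcripts, the 11 with a tract of 40 nt or more had a median log2 fold change of 2.23 and the 5 with a shorter one a median of 0.05. The range was 0.91 to 3.19 with a long tract and 0.00 to 0.72 without. The lincRNA and antisense transcripts listed in all libraries divided alike, with 24 of 42 called higher and a median of 2.00 at 40 nt or more, and 1 of 23 called and a median of 0.55 below. Of the same 16, with the limit at 30 nt, the 13 at or above it had 7 calls and a median of 1.94, and the 3 below it had no call and a median of 0.01. With the limit at 50 nt, the 9 at or above it had 7 calls and a median of 2.48, and the 7 below it had no call and a median of 0.55. A purine tract of 40 nt or more was carried by 6 of the 16, of which 3 were called, and a pyrimidine tract by 5, of which 4 were called. No limit on the tract was fixed independently of these values, so the division is a description.

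**Figure D3:**
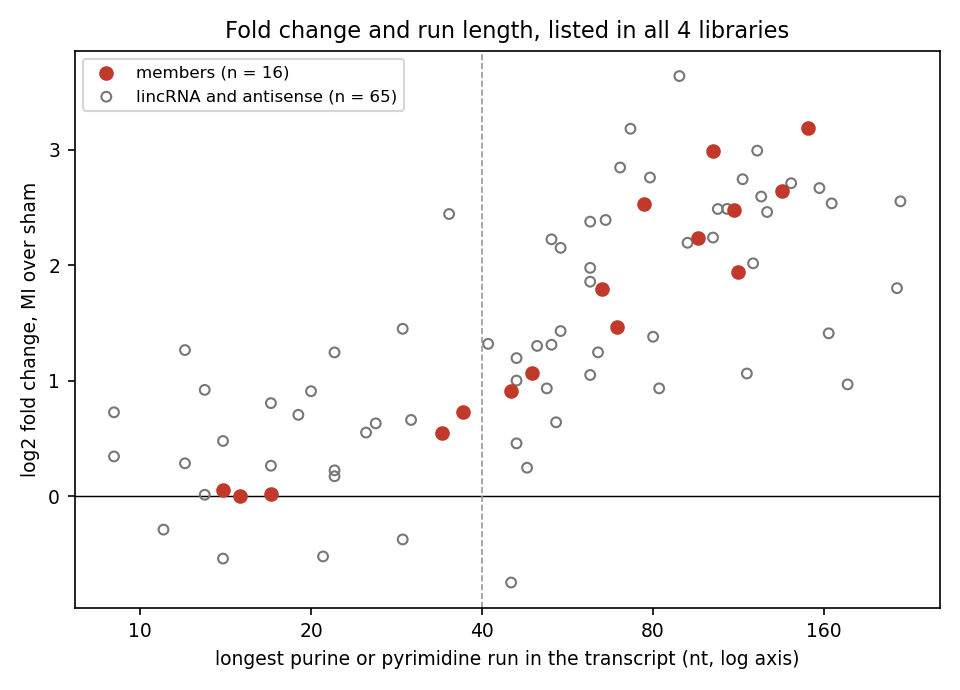
log2 fold change of MI over sham against the longest purine or pyrimidine run (log axis, nt) for the transcripts listed in all 4 libraries. Filled symbols are 16 of the 65 transcripts described here and open symbols 65 lincRNA and antisense transcripts; the dashed line marks 40 nt, right of which the filled symbols lie between 0.91 and 3.19.

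A further 9 transcripts were listed in both MI libraries and in no sham library, and all 9 were called. They passed the filter through MI alone and their sham counts were entered as 0, so the listing itself nearly fixed the calls. Most other tested features of the table with this listing were called too. Since unlisted means at most 9 UMIs, their fold is a lower bound, taken from the MI mean against 9 UMIs in each sham library. It bounds the unlisted sham value only and does not cover counting error in the MI counts. Gm26736 had 71.1 and 72.5 UPM in MI (62 and 44 UMIs), at least 7.99-fold higher (edgeR adjusted p = 0.0260). Foxd2os, on the strand opposite to Foxd2, had 64.2 and 62.6 UPM in MI, at least 7.06-fold higher (edgeR adjusted p = 0.0312). The second transcript of 1500004A13Rik (ENSMUST00000183707) had 35.5 and 51.1 UPM in MI, at least 4.82-fold higher (edgeR adjusted p = 0.0423). Both 1500004A13Rik transcripts together had 48.1 and 77.5 UPM in MI, against 18.4 and 20.1 UPM in sham. Gm13986, with a CTTT repeat, had 32.1 and 37.9 UPM in MI, at least 3.90-fold higher (edgeR adjusted p = 0.0423). Of these 4, the 1500004A13Rik transcript has no long tract (23 nt).

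Gm26736 and Gm26814 are the 2 TEC loci and neighbours inside Ppp1r9a, the gene of the actin-binding protein neurabin, at chr6:4946568-4947803 and chr6:4942147-4946295 (+). Gm26814 had 29.8 and 19.8 UPM in MI, at least 2.76-fold higher (edgeR adjusted p = 0.0434). The other 4 of the 9 had 12.6 to 31.3 UPM in MI. They were Spata5l1 (at least 2.83-fold), Gm830 (at least 2.80-fold), Gm26638 (at least 2.06-fold) and Gm11292 (at least 1.99-fold), with edgeR adjusted p between 0.0423 and 0.0435. When unlisted features were set to 9 UMIs, Gm26814 and these last 4 lost their calls (edgeR adjusted p = 0.0614, 0.0616, 0.0623, 0.194 and 0.225). None of the 9 passed in the fits with a lone MI library. With DESeq2 size factors within the table, Spata5l1, Gm830, Gm26638 and Gm11292 kept their calls (edgeR adjusted p = 0.0465), and the other 5 had adjusted p between 0.0522 and 0.0615. No transcript was listed in both sham libraries and in neither MI library.

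Mir99ahg, the host gene of the miR-99a, let-7c and miR-125b cluster, had 209.8 and 259 UPM in MI (183 and 157 UMIs), against 8.53 UPM in sham replicate 1 (13 UMIs) and no listing in sham replicate 2. The fitted log2 fold change was 5.44 with the unlisted value at 0 (edgeR adjusted p = 0.0312) and 4.54 with it at 9 UMIs. Without MI replicate 1 it was 5.65 (adjusted p = 0.185) and without MI replicate 2 it was 5.36 (0.228), each with a lone MI library. With DESeq2 size factors within the table it was 4.15 (0.0666). The transcript counted ends 404 bases before Mir99a and 1125 before Mirlet7c-1, and its GAAA tract lies near its 5′ end. The levels of miR-99a-5p, let-7c-5p and miR-125b-5p, mature miRNAs of the cluster, overlapped between the groups. Both let-7c-5p and miR-125b-5p are also encoded at another locus. The level of miR-99a-5p was 74.5 and 23.1 UPM in MI against 47.3 and 25.4 UPM in sham. That of let-7c-5p was 13888 and 12303 UPM in MI against 13739 and 14853 UPM in sham. That of miR-125b-5p was 2181 and 1913 UPM in MI against 2410 and 1871 UPM in sham. Only sham replicate 1 listed miR-125b-2-3p, with 10.5 UPM.

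The other 5 transcripts listed in both MI libraries and in 1 sham library were not called. A530058N18Rik had 43.6 and 52.7 UPM in MI, against 8.53 UPM in sham replicate 1. 4933421A08Rik had 17.2 and 26.4 UPM in MI, against 7.22 UPM in sham replicate 1. 6430562O15Rik had 12.6 and 24.7 UPM in MI, against 6.56 UPM in sham replicate 1. Their log2 fold changes of 3.37, 2.48 and 2.39 had wide errors (SE 1.66, 1.76 and 1.75). Gm20394 had 28.7 and 26.4 UPM in MI, against 15.8 UPM in sham replicate 1, and Gm15509 had 31.0 and 24.7 UPM in MI, against 24.1 UPM in sham replicate 2.

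Of the 7 transcripts with other patterns over both groups, 5 were listed in 1 library of each group and 2 in 1 MI and both sham libraries. 4833422M21Rik had 98.9 UPM in MI replicate 2, against 16.1 UPM in sham replicate 2. A230004M16Rik had 28.0 UPM in MI replicate 2, against 21.4 UPM in sham replicate 2. Gm13648, which holds Mir429 in an exon and Mir200a and Mir200b in an intron, had 25.2 UPM in MI replicate 1, against 9.84 and 26.8 UPM in sham. The mature miR-429-3p stood at 49.3 and 21.4 UPM in MI against 36.8 and 91.1 UPM in sham. In all 3 the groups overlapped once unlisted libraries are counted. Cep112it, an intronic transcript of Cep112, had 21.4 UPM in MI replicate 2, against 17.1 and 17.4 UPM in sham.

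The last 27 transcripts were listed in a single library, 13 in MI and 14 in sham, with 10 to 28 UMIs. At 10 UMIs the exact 95% Poisson interval, which covers counting error only, runs from 4.80 to 18.4. It includes the 9 UMIs that an unlisted library may have had. At 20 UMIs it runs from 12.2 to 30.9 and does not. These are counts, and 9 UMIs stand for 5.91 UPM in sham replicate 1 but 14.8 UPM in MI replicate 2. An interval above 9 UMIs thus does not set the levels of libraries apart. Libraries of a group differed by more than counting error over the table. Among them was Fendrr, an lncRNA required for heart and body wall development in the mouse, with 22.9 UPM for one transcript and 16.0 UPM for the other, both in MI replicate 1 and with 34 UMIs in all. 4930505G20Rik, which has a 40-nt tract, had 29.7 UPM in MI replicate 2. The hosts of small nucleolar RNAs Gas5 and Snhg15 had 13.4 UPM in sham replicate 2 and 11.2 UPM in sham replicate 1. Of the 27, 2 have a tract of 40 nt or more, and both of these were listed in MI.

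Other known lncRNAs were sparse in these tables. Of 20 snoRNA host genes 4 were listed, of 8 imprinted lncRNA genes none, and of 11 cardiac and vascular lncRNA genes 3, among them Tug1 with 48.1 and 28.0 UPM in MI against 11.8 and 16.1 UPM in sham. The nuclear lncRNA Neat1 had 362 and 297 UPM in MI, against 137 and 115 UPM in sham, and Malat1 had 30.9 and 52.7 UPM in MI, against 23.6 and 33.5 UPM in sham. Of 7 RNA polymerase III genes, which make short and abundant RNAs, 5 were listed. The vault RNA Vaultrc5 had 1093 and 1051 UPM in MI, against 915 and 857 UPM in sham, and the Y RNA Rny1 had 193 and 201 UPM in MI, against 295 and 230.4 UPM in sham.

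Neighbouring genes were considered for every transcript. An exon overlapped one of a protein-coding gene on the opposite strand in 24 of the 65, and an exon of another gene on the same strand in 8. In 2 of these the other gene makes a small RNA, Mir429 for Gm13648 and a small RNA gene in Gas5. None shared a stretch of 20 bases with a GENCODE M21 gene of type rRNA, mitochondrial rRNA or mitochondrial tRNA. The rRNA-named features 18S and 45S have no sequence in that annotation and were not compared. A stretch of 20 bases was shared with a gene of type misc_RNA in 27 and with a miRNA hairpin gene in 25, which includes the simple repeats above.

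The number of reads behind each UMI gives a view of amplification that the counts do not hold. The median over the listed transcripts was 7.18 and 8.13 reads per UMI in MI, against 6.34 and 6.6 in sham. Over the other features of the table the order was reversed, with 8.33 and 8.05 in MI against 10.1 and 8.59 in sham. B230206H07Rik had 1.52 and 1.07 reads per UMI in MI, against 1.03 and 1.05 in sham, and 9530052E02Rik had 1.02 and 1.14 in MI, against 1.08 and 1.03 in sham. Both were therefore near 1 read per UMI in every library, while others at like levels had several. In all, 7 of the 65 were under 1.6 in every library that listed them, 3 of these in 2 or more libraries, against 17 of the 346 other features of the table.

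**Figure D4:**
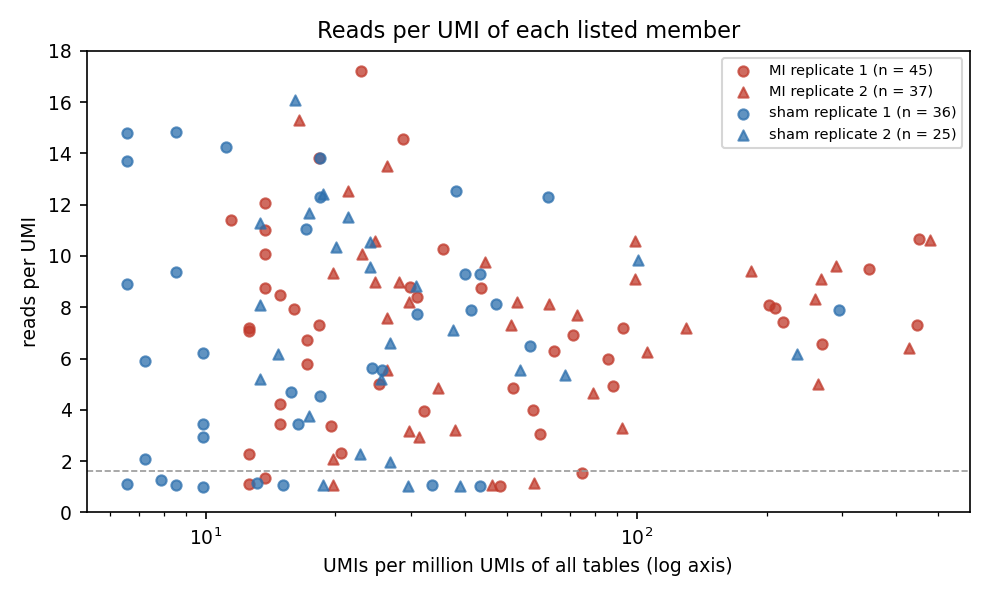
Reads per UMI of each listed transcript against its level in UPM (log axis), 1 symbol for each transcript and library. The dashed line marks 1.6 reads per UMI; most symbols lie between 2 and 16 in all 4 libraries, and a separate band lies near 1.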

How the data were processed

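Each library's deposited workbook gave, per the file headers, whole-number read counts and UMI counts per miRNA, piRNA, tRNA and other RNA, which the authors had already collapsed from reads; no source at hand names an aligner, a counting rule or a genome build. No table listed a feature under 10 UMIs, and unlisted features were entered as 0. Transcript IDs were matched to GENCODE M21 (mouse GRCm38): of 411 other RNA features 397 matched, 2 were rRNA-named and 12 had no match. No coordinates come from the deposited tables.

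Total reads were 14455043 and 11872840 in MI and 24626952 and 12955563 in sham, and levels are UMIs divided by the library's UMIs of all tables. Counts of the whole other RNA table were fitted with edgeR 4.0.16 (R 4.3.3; quasi-likelihood F-test, two-sided, filterByExpr by group, library size all-table UMIs, Benjamini-Hochberg adjustment, threshold 0.05). In data simulated from the means and library sizes of these counts (5 sets, 411 features with 200 changed) at a dispersion of 0.1, well under the common dispersion of 0.589 in the fit to the real counts, this fit called 25.8% of 4-fold, 7.38% of 2-fold and 0.636% of unchanged features among those tested. Libraries of a group differed beyond sampling noise (chi-square per degree of freedom 7.29 in MI, 6.40 in sham), so none was merged.

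The transcripts, gene lists and marker lists were chosen with earlier results of these data known. Text names every transcript listed in all libraries, or in both of a group and none of the other, every one called, and up to 10 more by highest level, apart from 1 that is not reported here. Cep112it, Gas5, Snhg15 and AC122898.1 were named after their values were seen. Alternatives (read counts, scalings, DESeq2 1.42.0, filters, unlisted values at 9 UMIs, replicate block, each library left out) are in the closing section. Transcripts on X and Y and tables of uncharacterised reads were not used.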

Additional observations from a re-analysis of the deposited data

How the results depend on the processing

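Against 63 features called higher and 2 lower in MI, the counts were 27 and 0 with read counts, 0 and 0 with TMM factors within the table, 26 and 4 with DESeq2 size factors, 0 and 0 with the other RNA library size, 40 and 0 without ribosomal RNA in the library size, 30 and 0 in 1 fit over all tables with TMM factors, 6 and 5 with the DESeq2 Wald test (adjusted p NA for 32 features), 77 and 1 with no low-count filter, 52 and 0 for features listed in all 4 libraries, and 101 and 0 with unlisted features at 9 UMIs. Leaving out single libraries gave 0 to 77 higher and 0 lower. With the replicate block, the counts were 35 and 0, and 5 of the 65 lncRNAs were called, Platr32, Gm26704, Gm16551 and Gm17491 among them. The labels tie no shared animal, batch or day to the numbers. Deviations of same-numbered libraries correlated at 0.37 (Pearson) and 0.31 (Spearman) across 114 features, which are not independent replicates. In both groups replicate 1 also had more UMIs and a lower level of ribosomal RNA than replicate 2. Whether this or a pairing lies behind the correlation was not tested. The design names no pairing, and 2 pairs cannot settle it.

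The log2 ratio of summed levels, 1.83, was 2.04 with read counts, 0.61 with TMM factors, 0.58 with DESeq2 size factors, 1.03 with the other RNA library size, 1.98 without ribosomal RNA, 1.54 with unlisted features at 9 UMIs, and 1.75 to 1.91 without single libraries.

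No called transcript changed sign in any alternative that gave it a value. Uncalled ones did, here in log2 fold change and in the order TMM within the table, DESeq2 size factors, DESeq2 Wald test: A330023F24Rik -1.22, -1.25 and -1.25; 4930563E22Rik -0.28, -0.33 and -0.33; B230206H07Rik -0.49, -0.51 and -0.50; 9530052E02Rik -0.65, -0.68 and -0.68; Gm11769 -0.084, -0.11 and -0.11; Gm15672 -1.29, -1.31 and -1.32; 1500004A13Rik (ENSMUST00000184014) -1.22, -1.26 and -1.27; A230004M16Rik -0.69, -0.79 and -0.81. With the other RNA library size they were -0.80 (A330023F24Rik), -0.036 (B230206H07Rik), -0.24 (9530052E02Rik), -0.91 (Gm15672), -0.85 (1500004A13Rik) and -0.45 (A230004M16Rik). In 1 fit over all tables they were -0.20 (A330023F24Rik), -0.14 (Gm15672) and -0.17 (1500004A13Rik). With read counts they were -0.17 (A330023F24Rik), -0.041 (A230004M16Rik) and 0.74 (Gm13648, -0.51 on UMIs). Among features listed everywhere Gm15672 had -0.0021 and 1500004A13Rik -0.0078. With unlisted values at 9 UMIs 1500004A13Rik had -0.0065 and Gm13648 0.22, and under the block 1500004A13Rik had -0.075. Without single libraries A330023F24Rik had -0.15 to 0.18, Gm15672 -0.71 to 0.73, 1500004A13Rik -0.60 to 0.45, A230004M16Rik -6.49 to 6.81 and Gm13648 -7.14 to 0.47. The cause was not tested. In the fits without 1 MI library, that group's lone library was assumed to vary like the sham pair. In the fits without 1 sham library, the lone sham library was assumed to vary like the MI pair.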
